A study of Homo sapiens with 6 samples.

Results

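The G1 control genes described here are the 3 D cyclins (CCND1, CCND2, CCND3), their kinases CDK4 and CDK6, the CDK inhibitors CDKN1A, CDKN1B, CDKN1C and CDKN2C, and the substrate RB1. These 10 genes were found by symbol among 60609 gene identifiers, and all 10 were among the 15958 genes with enough counts to be tested. Messenger RNA was sequenced from 3 HEK293 libraries labelled STAT5b knock-out and 3 labelled wild type. HEK293 is a human embryonic kidney line transformed with adenovirus DNA that includes E1A. Per the labels, the knockout cells were CRISPR/Cas9 clones selected for a mutation on both STAT5B alleles, and both groups were kept in DMEM with fetal bovine serum. The same protocol also speaks of GS knockout clones without explaining the term, so the genotype given here rests on the sample labels. Sample titles also carry the word Sham, which the labels do not explain. The labels give triplicates, without saying whether these were separate cultures or clones. The p-values therefore measure only how far these libraries spread, which may be technical. Loss of STAT5B and other differences between picked clones and their parent line cannot be told apart here.

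D cyclins are short-lived proteins that couple growth signals to the cell cycle. They bind and activate CDK4 and CDK6, which phosphorylate the retinoblastoma protein and its relatives so that E2F factors are released. INK4 inhibitors such as p18 bind CDK4 and CDK6 themselves, whereas CIP/KIP inhibitors (p21, p27, p57) bind cyclin-CDK complexes and block CDK2. CCND1 is a known STAT5 target in several cell types. The adenoviral E1A protein binds the retinoblastoma protein, so this axis runs on an altered background in HEK293.

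Libraries held 17494958 to 21099813 estimated counts in the knockout and 17686407 to 20279181 in the wild type. STAT5B mRNA was 63.1, 61.8 and 60.5 CPM (counts per 1000000) in the knockout, against 70.1, 64.6 and 69.4 CPM in the wild type, a log2 fold change of −0.14 (SE 0.0468, edgeR adjusted p = 0.0468). That call ended in 12 of 16 alternatives, and counts over the whole gene do not check a small mutation. All 7 HEK293 markers were detected, with a summed level of 908 to 925 TPM in the knockout and 1030 to 1060 TPM in the wild type (1 member rose and 1 fell). Summed fibroblast markers (5 genes) lay at 5.33 to 6.59 TPM in the knockout and 5.35 to 6.18 TPM in the wild type. Summed haematopoietic markers (5 genes, PTPRC and CD3E at 0 counts) lay at 3.56 to 6.27 and 4.14 to 6.26 TPM in knockout and wild type. Summed endothelial markers (4 genes, CDH5 at 0 counts) lay at 0.039 to 0.104 and 0.071 to 0.335 TPM in knockout and wild type. Of these 3 lists 1, 2 and 0 genes had enough counts to be tested, and 0 passed edgeR in either direction, and the part of the HEK293 markers in the results was not tested.

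The knockout and wild-type libraries were compared to ask which of the 10 mRNAs differed between the genotypes. CCND1 fell to 0.63 of its wild-type level and CDKN1A rose 1.53-fold, and the other 8 genes did not pass edgeR's quasi-likelihood test with Benjamini-Hochberg adjustment over all tested genes at 0.05. Thus 1 of 10 genes fell, where 11.4% of all tested genes fell, and 1 of 10 rose, where 12.1% of all tested genes rose. In bulk RNA, fewer cells expressing a gene and less of its RNA per cell cannot be told apart. The share of changed genes among the 10 was close to that of the transcriptome (23.4%). The median log2 fold change of the 10 genes was −0.048, against 0.0063 over all tested genes. The change of CCND1 was large for these data: 3.92% of tested genes moved by at least as much in either direction, and 2.41% rose by at least as much as CDKN1A.

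**Figure D1:**
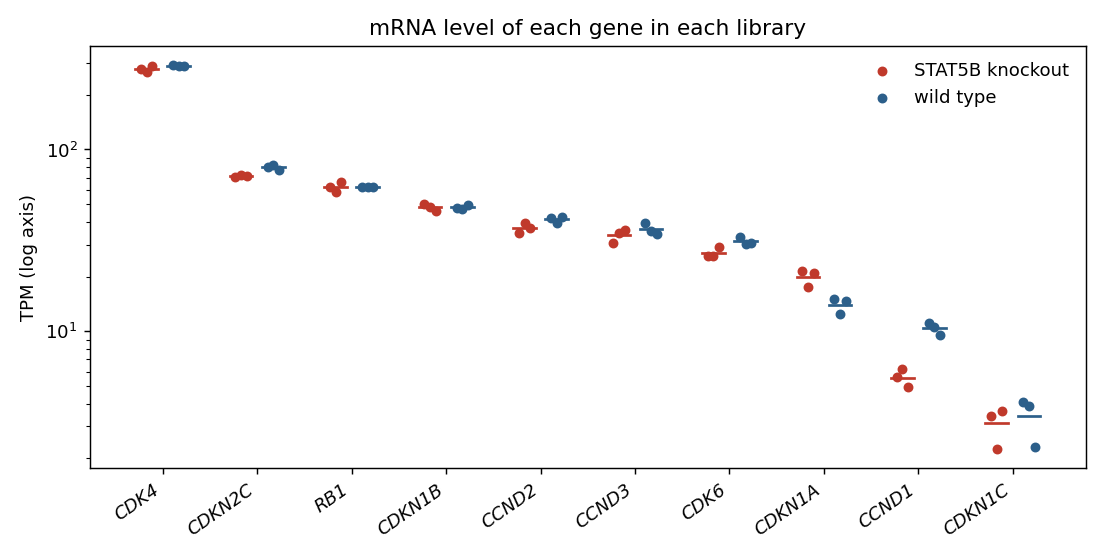
Level of each gene in TPM (transcripts per 1000000, log axis), with 1 point per library and a bar at the mean of 3; STAT5B knockout is left of wild type. On this scale the knockout lies above the wild type without overlap for CDKN1A, and below it for CCND1, CDK4, CDK6 and CDKN2C. Of these, only CDKN1A and CCND1 passed edgeR, which uses counts. On log2(TPM + 1) the median log2 fold change of all tested genes was −0.059. The share of all tested genes without overlap in TPM was not counted. CDK4 is the most abundant of the 10 in every library.

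Levels per transcript length (TPM) spanned a wide range among the 10 genes. CDK4 was highest, with 277 ± 9.9 TPM in the knockout and 289 ± 2.05 TPM in the wild type (SD, n = 3 each, as for all means below). CDKN2C, RB1 and CDKN1B followed, then CCND2, CCND3 and CDK6, then CDKN1A, CCND1 and CDKN1C, and this order was the same in both groups. Between neighbours in that order the values of the 3 libraries overlapped for CCND2 and CCND3 in each group and for no other pair. CDKN1C was lowest, with 3.11 ± 0.756 TPM in the knockout and 3.42 ± 0.975 TPM in the wild type.

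CCND1 encodes cyclin D1, the D cyclin most often tied to mitogen signals (ENSG00000110092, plus strand of chromosome 11, 69641087 to 69654474, hg38). Its level was 13.2, 15 and 12.6 CPM in the knockout, against 22.6, 21.5 and 21 CPM in the wild type. Every knockout library lay below every wild-type library. The means were 13.6 ± 1.22 CPM in the knockout and 21.7 ± 0.848 CPM in the wild type. The log2 fold change was −0.67 (SE 0.0822, 95% interval −0.84 to −0.49), with an edgeR adjusted p of 6.81e-05. These values rest on 766 estimated counts in the knockout and 1237 in the wild type. The 50 tested genes around CCND1 on chromosome 11 had a median log2 fold change of −0.05, with 8 lower and 2 higher. LTO1 overlaps the end of CCND1 on the other strand and had a log2 fold change of −0.01 (edgeR adjusted p = 0.936).

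CCND2 encodes cyclin D2, the most abundant D cyclin mRNA here per length together with CCND3 (chromosome 12, plus strand, 4273772 to 4305350, hg38). It had 141, 162 and 152 CPM in the knockout and 161, 153 and 165 CPM in the wild type. The groups overlapped, and the log2 fold change of −0.07 (95% interval −0.17 to 0.03) did not pass edgeR (adjusted p = 0.283). The unnamed gene ENSG00000285901 spans CCND2 on the same strand, and the CCND2 counts were not whole, so reads may have been split between them and the CCND2 level is uncertain. That gene had 737 estimated counts in the knockout and 846 in the wild type (log2 fold change −0.15, edgeR adjusted p = 0.618).

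CCND3 encodes cyclin D3 (chromosome 6, minus strand, 41934933 to 42050357, hg38). It had 33.2, 37.1 and 38.6 CPM in the knockout and 41.2, 36.9 and 36.7 CPM in the wild type. Again the groups overlapped, with a log2 fold change of −0.07 (95% interval −0.22 to 0.07, edgeR adjusted p = 0.481). The intervals of CCND2 and CCND3 thus held falls of up to 0.17 and 0.22 on the log2 scale, and neither reached the CCND1 estimate. The log2 ratio of CCND1 over CCND2 in TPM was −2.63, −2.68 and −2.92 in the knockout, against −1.93, −1.89 and −2.15 in the wild type. For CCND1 over CCND3 it was −2.46, −2.50 and −2.87 in the knockout, against −1.83, −1.75 and −1.83 in the wild type. Both ratios were lower in every knockout library than in any wild-type library.

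**Figure D2:**
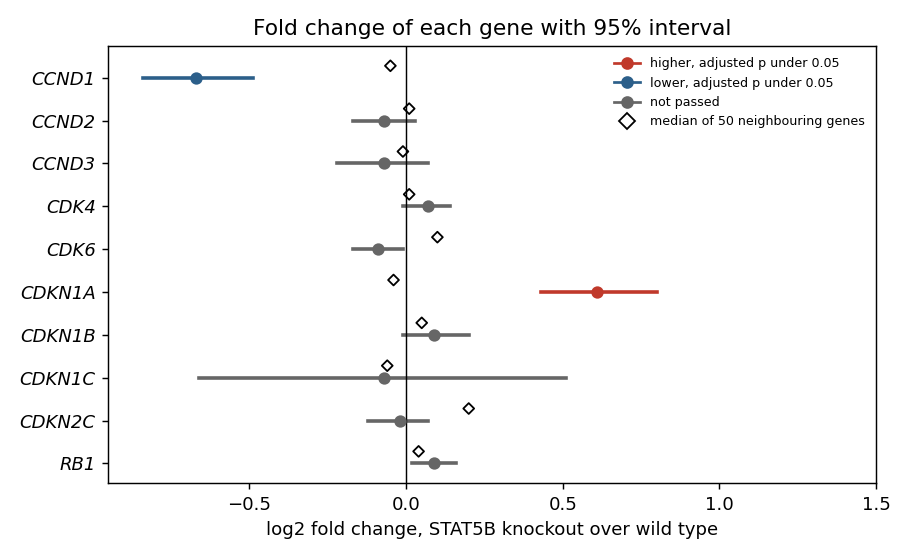
Log2 fold change of each gene, STAT5B knockout over wild type, from edgeR with its 95% interval (3 libraries per group); open diamonds mark the median of the 50 tested genes nearest to it on its chromosome. CCND1 at −0.67 and CDKN1A at 0.61 lie far from their neighbours' medians of −0.05 and −0.04, and the wide interval of CDKN1C comes with its low count.

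CDK4 (chromosome 12, minus strand, 57747727 to 57756013, hg38) had 203, 211 and 221 CPM in the knockout and 204, 200 and 201 CPM in the wild type. The groups overlapped, and the log2 fold change of 0.07 (95% interval −0.01 to 0.14) did not pass edgeR (adjusted p = 0.179). In TPM the knockout values (276, 267 and 287) lay below the wild-type values (291, 288 and 288), and on log2(TPM + 1) the sign turned, with a value of −0.06 (limma adjusted p = 0.318). TSPAN31 overlaps CDK4 on the other strand and fell by 0.38 in log2 fold change (adjusted p = 0.00502), and MARCHF9, also on the other strand, had a log2 fold change of 0.17 (adjusted p = 0.0511). The CDK4 counts were whole in every library, unlike those of CCND2. Whether the authors counted by strand is not known here, and whether reads of these pairs were shared was not tested.

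CDK6, the other D cyclin kinase (chromosome 7, minus strand, 92604921 to 92836594, hg38), had 166, 165 and 175 CPM in the knockout and 184, 171 and 182 CPM in the wild type. In CPM, knockout replicate 3 lay above wild-type replicate 2, so the groups overlapped. In TPM they did not, with 26, 25.8 and 28.9 TPM in the knockout against 33.1, 30.3 and 30.4 TPM in the wild type. On log2(TPM + 1) the fold change was −0.21 (limma adjusted p = 0.0984). The log2 fold change was −0.09 (95% interval −0.17 to −0.01) and did not pass after adjustment (edgeR adjusted p = 0.117), but it did without knockout replicate 3 (−0.12, adjusted p = 0.0449), which takes the count of genes lower among the 10 to 2. Over the other 15 alternatives the adjusted p of CDK6 stayed above 0.05. The 50 genes around CDK6 had a median log2 fold change of 0.10, with 11 higher and 2 lower. The log2 ratio of CDK6 over CDK4 in TPM was −3.41, −3.37 and −3.31 in the knockout and −3.14, −3.25 and −3.24 in the wild type, without overlap.

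CDKN1A encodes p21, the inhibitor that p53 induces after DNA damage and other stress (ENSG00000124762, plus strand of chromosome 6, 36676460 to 36687339, hg38). Its level was 27.5, 22.6 and 26.1 CPM in the knockout, against 17.5, 15.1 and 17.1 CPM in the wild type. Every knockout library lay above every wild-type library. The means were 25.4 ± 2.57 CPM in the knockout and 16.6 ± 1.28 CPM in the wild type, a log2 fold change of 0.61 (SE 0.0877, 95% interval 0.43 to 0.80) with an edgeR adjusted p of 2.02e-04. Counts behind these values were 1412 in the knockout and 945 in the wild type. Its 50 neighbours on chromosome 6 had a median log2 fold change of −0.04, with 7 lower and 3 higher. For CDKN1A and for CCND1, permuting the group labels exactly (two-sided) gave p = 0.1, the smallest value that 3 against 3 libraries allow.

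The promoter of CDKN1A is shown because it is the changed gene of the 10 with an entry in the RefSeq promoter table (GRCh38.p14), and that of CDK6, which did not pass, is set beside it. The CDKN1A entry belongs to a start inside the annotated gene. Each stretch ends where the next annotated exon of the gene begins (chr6:36678464-36678657, plus strand, and chr7:92836595-92836823, minus strand). Capitals mark GC boxes (GGGCGG on either strand), a motif bound by Sp1 factors.
CDKN1A: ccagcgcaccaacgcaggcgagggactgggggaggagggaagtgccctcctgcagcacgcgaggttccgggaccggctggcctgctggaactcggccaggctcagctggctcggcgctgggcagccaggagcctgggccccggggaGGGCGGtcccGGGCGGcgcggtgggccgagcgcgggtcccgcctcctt
CDK6: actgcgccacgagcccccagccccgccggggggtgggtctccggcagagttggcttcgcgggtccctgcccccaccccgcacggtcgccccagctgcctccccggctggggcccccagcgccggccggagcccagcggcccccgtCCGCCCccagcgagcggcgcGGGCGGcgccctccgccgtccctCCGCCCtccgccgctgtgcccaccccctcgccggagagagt

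Both stretches were rich in G and C (76.8% in CDKN1A and 82.1% in CDK6), with 2 GC boxes in the CDKN1A stretch and 3 in that of CDK6. The full 250 bases before the start held 4 in CDKN1A and 3 in CDK6, since the CDKN1A stretch leaves out the 2 boxes nearest the start. Neither held the palindrome TTCNNNGAA, the form that STAT factors bind. Of the 10 genes, 7 had at least 1 entry in that table (12 entries in all). In the 250 bases before the start, a GC box was found in 8 of the 12 entries, against 42.6% of 35116 promoters of all genes. Entries of the same gene are not independent. TTCNNNGAA, searched on both strands, was in 1 of the 12, an entry inside RB1, against 6.57% of all promoters. The E2F form TTTNGCGC was in 0 of the 12 and in 1.51% of all.

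CDKN1B encodes p27, the CIP/KIP inhibitor of resting cells (chromosome 12, plus strand, 12715058 to 12722371, hg38). It had 65.0, 64.7 and 59.7 CPM in the knockout and 58.6, 57.8 and 61.3 CPM in the wild type. The groups overlapped, with a log2 fold change of 0.09 (95% interval −0.01 to 0.20, edgeR adjusted p = 0.206). The log2 TPM ratio of CDKN1A over CDKN1B was −1.21, −1.46 and −1.15 in the knockout, against −1.67, −1.91 and −1.77 in the wild type. This ratio was higher in each knockout library than in any wild-type library.

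CDKN1C encodes p57, an imprinted inhibitor (chromosome 11, minus strand, 2883213 to 2885773, hg38). With 44, 35 and 42 counts in the knockout and 50, 49 and 31 in the wild type, it had too few reads for a precise estimate. The log2 fold change was −0.07 (edgeR adjusted p = 0.880), with a 95% interval of −0.66 to 0.51. Its sign turned without knockout replicate 2 (0.10) and without wild-type replicate 1 (0.09) or 2 (0.02).

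CDKN2C encodes p18, the INK4 inhibitor of CDK4 and CDK6 among the 10 (chromosome 1, plus strand, 50960745 to 50974633, hg38). Its level was 59.4, 59.9 and 59.9 CPM in the knockout and 60.7, 62.6 and 58.7 CPM in the wild type. The log2 fold change of −0.02 (95% interval −0.12 to 0.07) did not pass edgeR (adjusted p = 0.767). Its surroundings differed: the 50 nearest tested genes on chromosome 1 had a median log2 fold change of 0.20, with 24 higher and 1 lower, and the chromosome as a whole had 0.149. CDKN2C thus lay 0.23 below its neighbours' median, a difference that was not tested. In TPM its 3 knockout values (70.5, 72.2 and 71.5) lay below its 3 wild-type values (79.7, 82.4 and 77.4), and on log2(TPM + 1) the fold change was −0.16 (limma adjusted p = 0.056).

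RB1 encodes the retinoblastoma protein, the substrate through which CDK4 and CDK6 act on E2F (chromosome 13, plus strand, 48303726 to 48599436, hg38). It had 158, 154 and 159 CPM in the knockout, against 148, 148 and 147 CPM in the wild type. In CPM the groups did not overlap, which held for 3 of the 10 genes (CCND1, CDKN1A and RB1) and for 38.6% of all tested genes. Of the 3, CDKN1A and RB1 were higher in the knockout, as were 19.9% of all tested genes, and CCND1 was lower, as were 18.7%. The log2 fold change was 0.09 (95% interval 0.02 to 0.16) with an edgeR adjusted p of 0.0569, just outside the threshold. On log2(TPM + 1) it was 0.00 (limma adjusted p = 0.989). RCBTB2 overlaps RB1 on the other strand and had a log2 fold change of −0.23 (edgeR adjusted p = 0.395).

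**Figure D3:**
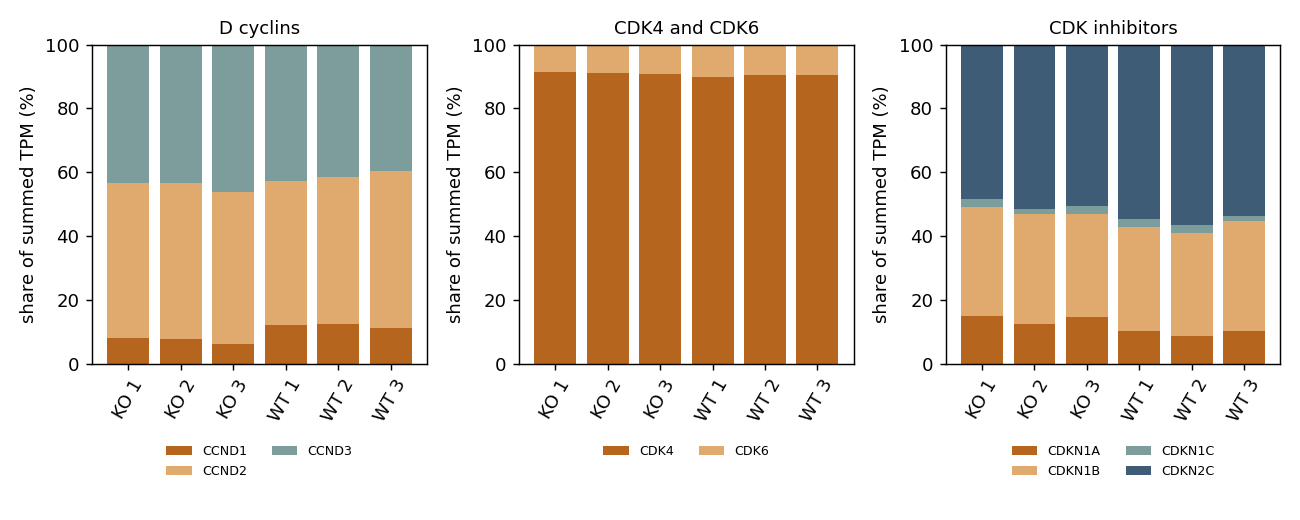
Share of each gene in the summed TPM of the D cyclins, of CDK4 and CDK6, and of the 4 CDK inhibitors, with 1 stacked bar per library (KO, STAT5B knockout; WT, wild type). CCND1 takes 6.29% to 7.90% of the D cyclin sum in the knockout and 11.1% to 12.4% in the wild type.

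CCND1 was a small part of the D cyclin mRNA in both groups. Its share of the summed D cyclin TPM was 7.28% ± 0.869 in the knockout and 11.8% ± 0.666 in the wild type. CCND2 made up 48.4% ± 0.737 in the knockout and 46.9% ± 2.16 in the wild type, and CCND3 44.3% ± 1.59 and 41.2% ± 1.58 in knockout and wild type. The summed D cyclin level was 70.8, 80.6 and 78.2 TPM in the knockout, against 92.6, 85.3 and 86.1 TPM in the wild type. In TPM every knockout sum lay below every wild-type sum, with a mean log2 difference of −0.20. On TMM-scaled counts per kilobase of effective length this mean difference was −0.11, and the sums of the 2 groups overlapped.

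Among the inhibitors, CDKN2C was the main mRNA, with 50.1% ± 1.47 of the summed TPM of the 4 genes in the knockout and 54.9% ± 1.40 in the wild type. CDKN1A made up 14.0% ± 1.27 in the knockout and 9.62% ± 0.914 in the wild type. The inhibitor sum itself was 145, 141 and 142 TPM in the knockout and 146, 146 and 144 TPM in the wild type, and the sign of its mean log2 difference depended on the scale (−0.03 in TPM, 0.06 on TMM-scaled counts per kilobase). The same held for CDK4 plus CDK6, with −0.08 in TPM and 0.01 on the other scale. Summed inhibitors over summed D cyclins came to 2.05, 1.74 and 1.82 in the knockout, against 1.58, 1.71 and 1.67 in the wild type. This ratio does not depend on library scaling, and its lowest knockout value lay just above its highest wild-type value. Summed D cyclins over CDK4 plus CDK6 came to 0.235, 0.275 and 0.247 in the knockout and 0.285, 0.268 and 0.271 in the wild type, and here the groups overlapped. These sums are descriptions of the mRNA and were not tested.

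**Figure D4:**
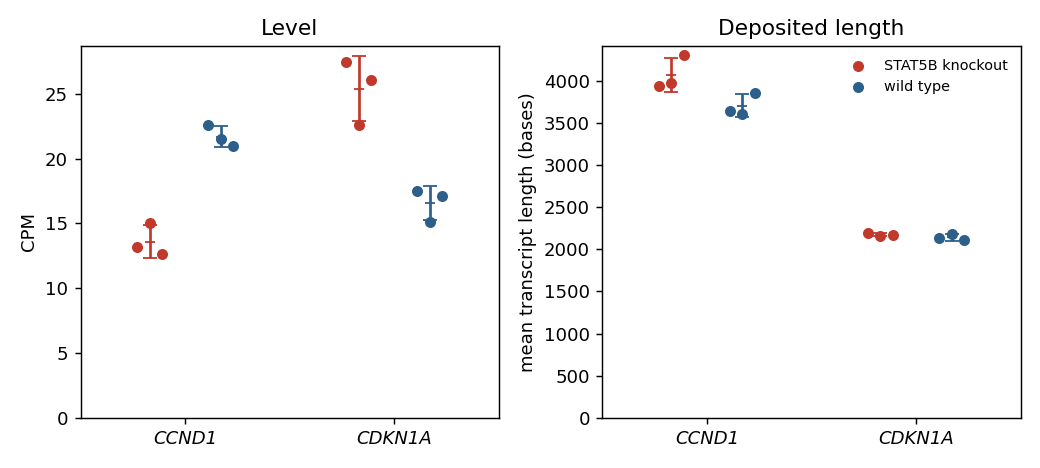
Level in CPM (left) and deposited mean length in bases (right) of CCND1 and CDKN1A, with 1 point per library and the mean ± SD of 3; STAT5B knockout is left of wild type. The CCND1 length is 3938 to 4307 bases in the knockout and 3614 to 3863 in the wild type, while the CDKN1A lengths overlap.

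The deposited tables also give each gene a length. For 13158 of the 15958 tested genes it differed between libraries, as a mean over transcripts weighted by abundance would. Among the 10 genes it differed for 9, and CDKN1B had 2411 bases in every library. For CCND1 it was 3938, 3973 and 4307 bases in the knockout, against 3639, 3614 and 3863 bases in the wild type, so the groups did not overlap. The value of 4307 in knockout replicate 3 equals the length of CCND1-201, the longest CCND1 transcript in GENCODE release 29, where the other CCND1 transcripts have 430 to 920 bases. The release that the authors used is not given. The CDKN1B length of 2411 bases matches none of its transcripts in release 29 (2657, 897, 577 and 453 bases). CCND3 lengths were shorter in the knockout (1904 to 1962 bases) than in the wild type (1986 to 2045), and CDKN2C lengths were longer (1504 to 1569 against 1485 to 1498). Non-overlapping lengths were found for CCND1, CCND3 and CDKN2C, 3 of the 9 genes, and for 12.8% of 13158 tested genes with variable length. Lengths above every wild-type value were found for 2 of them (CCND1 and CDKN2C) and for 4.64% of those 13158 genes. Across those genes limma on log2 length called 0.0076% (COL5A2 alone) and 0 of the 9. At an unadjusted p under 0.05 it gave 1 of the 9, CCND1 (log2 ratio 0.136, adjusted p = 0.618). The share of the 13158 genes at that unadjusted threshold was not counted, so this 1 of 9 has no background to be read against. With offsets for effective length the edgeR log2 fold change of CCND1 was −0.83 (adjusted p = 0.00327) and that of CDKN1A 0.58 (0.0101).

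**Figure D5:**
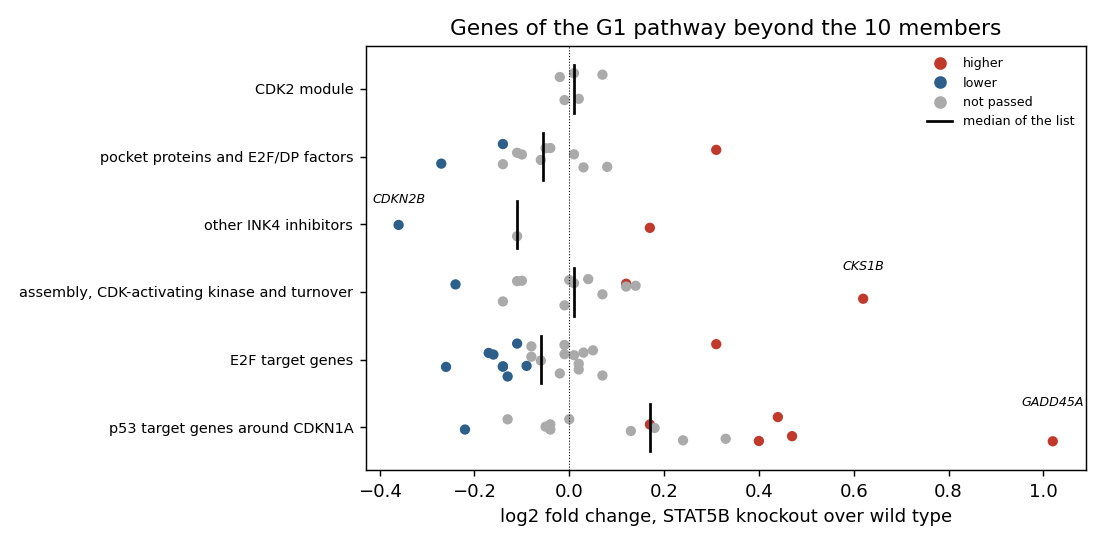
Log2 fold change, STAT5B knockout over wild type, of genes in 6 lists of the G1 pathway, with 1 point per gene and a black line at the median of the list. CKS1B at 0.62 and GADD45A at 1.02 lie farthest to the right and CDKN2B at −0.36 farthest to the left.

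Further along the pathway, the cyclin E and cyclin A partners of CDK2 showed no called change. Of CCNE1, CCNE2, CDK2, CCNA2 and CDC25A, 0 of 5 passed edgeR in either direction, beside 23.4% of all tested genes. None reached 0.05 before adjustment (0 genes), and the share of all tested genes that did was not counted. The count was likewise 0 in DESeq2 and in limma-voom. Their median log2 fold change was 0.01. Cyclin E1, which E2F induces at the G1/S boundary, had a log2 fold change of −0.02 (edgeR adjusted p = 0.825).

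The other INK4 genes, which share a locus on chromosome 9 except CDKN2D, went in different directions. CDKN2A, which encodes p16 and ARF, rose to 188 ± 0.78 CPM in the knockout, against 168 ± 5.44 CPM in the wild type (log2 fold change 0.17, edgeR adjusted p = 0.00278). This call ended on log2(TPM + 1), with an adjusted p of 0.0864. CDKN2B, which encodes p15, fell to 12.2 ± 1.94 CPM in the knockout, against 15.6 ± 1.2 CPM in the wild type (log2 fold change −0.36, adjusted p = 0.0289), a call that ended in 8 of 16 alternatives. Without knockout replicate 2 or 3, or wild-type replicate 1 or 3, its adjusted p was 0.104, 0.0968, 0.083 and 0.103. CDKN2D, which encodes p19, did not pass, with 3.26 ± 0.518 CPM in the knockout and 3.52 ± 0.103 CPM in the wild type. The list had 1 gene higher and 1 lower of 3, beside 12.1% higher and 11.4% lower among all tested genes, with a median of −0.106.

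Among 12 pocket proteins and E2F or DP factors, 1 rose and 2 fell, near the 12.1% and 11.4% of all tested genes, with a median of −0.054. E2F5, a repressive E2F, rose to 44.0 ± 1.12 CPM in the knockout, against 35.5 ± 1.17 CPM in the wild type (edgeR adjusted p = 7.79e-04). TFDP2, a dimer partner of E2F, fell to 76.9 ± 2.69 CPM in the knockout, against 92.6 ± 2.04 CPM in the wild type (adjusted p = 3.67e-04). With effective-length offsets its sign turned (log2 fold change 0.14, adjusted p = 0.590). RBL1, which encodes the RB relative p107, fell by 0.14 on the log2 scale (adjusted p = 0.0434). This call ended in 12 of 16 alternatives, among them each left-out library except wild-type replicate 1.

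Of 13 genes for CDK assembly, CDK activation and protein turnover, 2 rose and 1 fell, near the all-gene shares of 12.1% and 11.4%, with a median of 0.015. CKS1B, a cofactor with which SKP2 marks p27 for degradation, rose to 102 ± 3.95 CPM in the knockout, against 66.1 ± 2.86 CPM in the wild type (log2 fold change 0.62, edgeR adjusted p = 1.06e-06). CKS1B lies on chromosome 1, which had a median log2 fold change of 0.148. The ubiquitin ligase scaffold CUL1 rose by 0.12 (adjusted p = 0.0318), a call that ended in 11 of 16 alternatives, including every left-out library except knockout replicate 3. RNF123, part of another ligase for p27, fell by 0.24 (adjusted p = 0.00637, and 0.724 with effective-length offsets). SKP2 itself did not pass, with a log2 fold change of 0.01.

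Of 21 genes known as E2F targets, 1 rose and 8 fell (12.1% and 11.4% of all tested genes did), with a median of −0.064, and 6 of them also stand in the lists of CDK2 partners and E2F factors. PCNA, the sliding clamp of replication, rose to 365 ± 6.36 CPM in the knockout, against 294 ± 7.63 CPM in the wild type (edgeR adjusted p = 1.78e-05). The thymidine kinase TK1 fell to 55.4 ± 3.02 CPM in the knockout, against 66.2 ± 2.65 CPM in the wild type (adjusted p = 0.00274). MCM5, a subunit of the replicative helicase, fell to 208 ± 6.11 CPM in the knockout, against 233 ± 7.74 CPM in the wild type (adjusted p = 0.00366). The count of falls was 4 without knockout replicate 2 or wild-type replicate 3, and 5 without wild-type replicate 2. It was 4 with effective-length offsets, 5 on log2(TPM + 1) and 0 against a 1.2-fold change.

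Of 15 p53 targets around CDKN1A, 5 rose and 1 fell, where 12.1% of all tested genes rose and 11.4% fell, and the median was 0.17. The growth arrest gene GADD45A rose to 37.7 ± 5.84 CPM in the knockout, against 18.5 ± 2.18 CPM in the wild type (edgeR adjusted p = 2.02e-05). SESN2, a stress-induced inhibitor of mTORC1, and BTG2, an antiproliferative gene, rose by 0.47 and 0.44 on the log2 scale (adjusted p = 2.39e-04 and 5.10e-04). All 3 lie on chromosome 1, which had a median log2 fold change of 0.148. The BTG2 call ended on log2(TPM + 1) (limma adjusted p = 0.055). The other genes of the list that rose lie on chromosomes 8 and 10. ZMAT3 fell by 0.22 (adjusted p = 0.0181), and MDM2, the p53 ubiquitin ligase and feedback target, had 192 CPM in the knockout and 193 CPM in the wild type (adjusted p = 0.959). The ZMAT3 call ended without knockout replicate 1 (adjusted p = 0.0797) and without wild-type replicate 2 (0.0699) or 3 (0.0603). The number of rises was 3 without knockout replicate 3, in DESeq2 and with effective-length offsets, 2 on log2(TPM + 1) and 1 against a 1.2-fold change.

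The genes whose log2 CPM followed CCND1 most closely over the 6 libraries, among 11473 genes with a symbol and at least 5 CPM, were ITPR2, NF2 and RANBP2 (Pearson r of 0.9991, 0.9984 and 0.9979). Their own log2 fold changes were −0.30, −0.36 and −0.24. For CDKN1A they were ORAI3, DEDD and EXOC8 (r of 0.9964, 0.9961 and 0.9960), with log2 fold changes of 0.64, 0.48 and 0.11. These correlations are descriptions over 6 libraries that share the 2 groups, and 27 genes reached an r of 0.99 with CCND1 and 13 with CDKN1A.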

How the data were processed

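Per the file headers, the authors deposited length, effective length, TPM and an estimated count for every gene of a library. Per the submitters' processing notes, FastQC, fastp, DRAGEN and Picard were used with hg38; the role of each tool, the annotation release and the use of strand are not given. The deposited estimated counts were not whole for 7.12% to 7.64% of genes and were rounded. The deposited TPM summed to 1000000 per library. Symbols came from a name table (60295 of 60609 identifiers matched) and positions from GENCODE 29.

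edgeR 4.0.16 (R 4.3.3) was run with filterByExpr (minimum count 10, total 15), TMM scaling, and group was tested by quasi-likelihood F over 15958 genes. An SE is the log2 fold change divided by the root of F, and 95% intervals use the t quantile at edgeR's degrees of freedom. CPM use TMM-scaled library sizes. Replicates differed by more than sampling noise (chi-square per degree of freedom 2.45 to 7.50).

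The 10 genes and the lists were chosen with earlier results of these data known. All 10 were named, with up to 3 genes per direction from each list (all changed genes where a list had at most 5), of which 1 is not reported here; cyclin E1, CDKN2D, SKP2, MDM2 and COL5A2 were named after their values were seen, and the test of lengths was also chosen then. Alternatives were RLE, DESeq2 1.42.0, limma-voom (limma 3.58.1), other filters, offsets, log2(TPM + 1) and log2(TPM + 0.1), a replicate block, a 1.2-fold null and leaving out each library.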

Additional observations from a re-analysis of the deposited data

How the results depend on the processing

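CCND1 stayed lower and CDKN1A higher past the threshold in all 16 alternatives, with log2 fold changes of −0.89 to −0.62 and 0.48 to 0.70 and adjusted p up to 0.00934 and 0.0302. Of the other 8 genes, CDK6 passed in 1 setting, without knockout replicate 3, so the count of lower members ranged from 1 to 2 over the left-out libraries, and the count of higher members was 1 in each. Over all genes, 1924 rose and 1818 fell (51.4% rises), with 891 and 843 under effective-length offsets, 155 and 140 against a 1.2-fold change, 488 and 1135 on log2(TPM + 1) (30.1% rises) and 483 and 1139 on log2(TPM + 0.1) (29.8% rises). On those TPM scales the median of all genes was −0.059 and −0.067. TFDP2 turned to 0.14 with effective-length offsets, 0.05 on log2(TPM + 1) and 0.06 on log2(TPM + 0.1), and the cause was not tested. On TMM-scaled counts per kilobase the summed D cyclins, kinases and inhibitors differed by −0.11, 0.01 and 0.06 (log2), against −0.20, −0.08 and −0.03 in TPM. Same-numbered libraries did not pair (correlations of their deviations −0.0596, 0.18 and 0.0388; knockout replicates 1 and 3 correlated better with another number), and with the replicate number as a block 1887 genes rose and 1773 fell, with 1 member in each direction. Depth limits CDKN1C, at 31 to 50 counts per library.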
